A study of Caenorhabditis elegans with 12 samples.

Results

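The genes described here are the sperm proteins and spermatogenesis genes of Caenorhabditis elegans. Members were taken by gene name alone from the table of gene abundances. A member called a sperm gene below was therefore not shown here to be expressed in sperm. They were the msp, msd and ssp genes, the nematode-specific peptide genes nspa to nspe, the spe and fer genes, and gsp-3, gsp-4, cpb-1, swm-1, try-5 and snf-10. The rule found 111 of the 15365 genes in the table: 28 msp, 4 msd, 9 ssp, 50 nsp and 15 spe or fer genes, with 5 of the 6 genes listed by name. No row was found for snf-10. The libraries came from whole worms of the wild-type strain N2, which breeds as self-fertilizing hermaphrodites, that were moved to treatment plates as L4 larvae and kept for 5 d at 20 °C, with progeny removed by sedimentation. The Control group had no addition, the Glu group received 2% glucose, the DMSO+Glu group 2% glucose with the solvent DMSO, and the Nar+Glu group 2% glucose with 25 μM naringin, a citrus flavonoid glycoside. Per the methods, naringin was dissolved in DMSO, at a final 0.1%, so DMSO+Glu is its solvent control. Each group had 3 poly(A)-selected libraries, and each library was a pool of worms.

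Nematode sperm have no flagellum and crawl by assembling and disassembling filaments of the major sperm protein, MSP, which is encoded by many nearly identical msp genes. MSP is also released from sperm and signals to oocytes and the gonadal sheath to start meiotic maturation and ovulation. A hermaphrodite makes its sperm as a late larva and young adult, before the germ line turns to oocytes, and stores them in the spermatheca until they are used or lost. The spe and fer genes were found through mutants whose sperm cannot form, activate, fertilize or support the embryo.

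Abundance was given as FPKM, the fragments mapped to a transcript scaled by its length and by the mapped fragments of the library, which allows genes to be compared per length but carries no count of fragments. A gene was tested where its mean over the 12 libraries was above 1 FPKM. This kept 12151 genes in all and 90 of the 111 members, namely 28 msp, 4 msd, 7 ssp, 40 nsp, 7 spe, and 4 of the genes listed by name. Changes below are differences of log2(FPKM + 1) from limma, a linear model with a spread shared across genes, and a gene was called where its Benjamini-Hochberg adjusted p, over all 12151 genes, was below 0.05. The pseudocount of 1 compresses the changes of low genes, so ratios of mean FPKM are given as well. Reads from nearly identical copies (the msp, msd, ssp and nsp genes) could be split among them, so a single copy is uncertain and the families are also given as sums. Counts over such copies may rest on the same reads, so they are not counts of independent genes. In whole worms, fewer sperm and less RNA per sperm cannot be told apart. Nothing in the labels says that the libraries of a group came from separate cultures, so the p-values measure only the spread between libraries.

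The msp genes were highest in Glu and lowest in Nar+Glu. Summed over the 28 genes, they reached 171, 177 and 145 FPKM in the Control libraries, 298, 312 and 304 for Glu, 185, 179 and 151 for DMSO+Glu and 54.2, 76.4 and 67.8 for Nar+Glu. Control and DMSO+Glu overlapped, every Glu library was above both, and every Nar+Glu library was below both. Mean sums (± SD, n = 3) were 164 ± 16.7 FPKM for Control, 305 ± 7.06 for Glu, 172 ± 18.01 for DMSO+Glu and 66.1 ± 11.2 for Nar+Glu. Glu stood at 1.85 times Control, DMSO+Glu at 0.564 times Glu, Nar+Glu at 0.385 times DMSO+Glu, and Nar+Glu at 0.402 times Control. The msp genes together took 0.0169% to 0.0977% of all FPKM in a library.

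**Figure D1:**
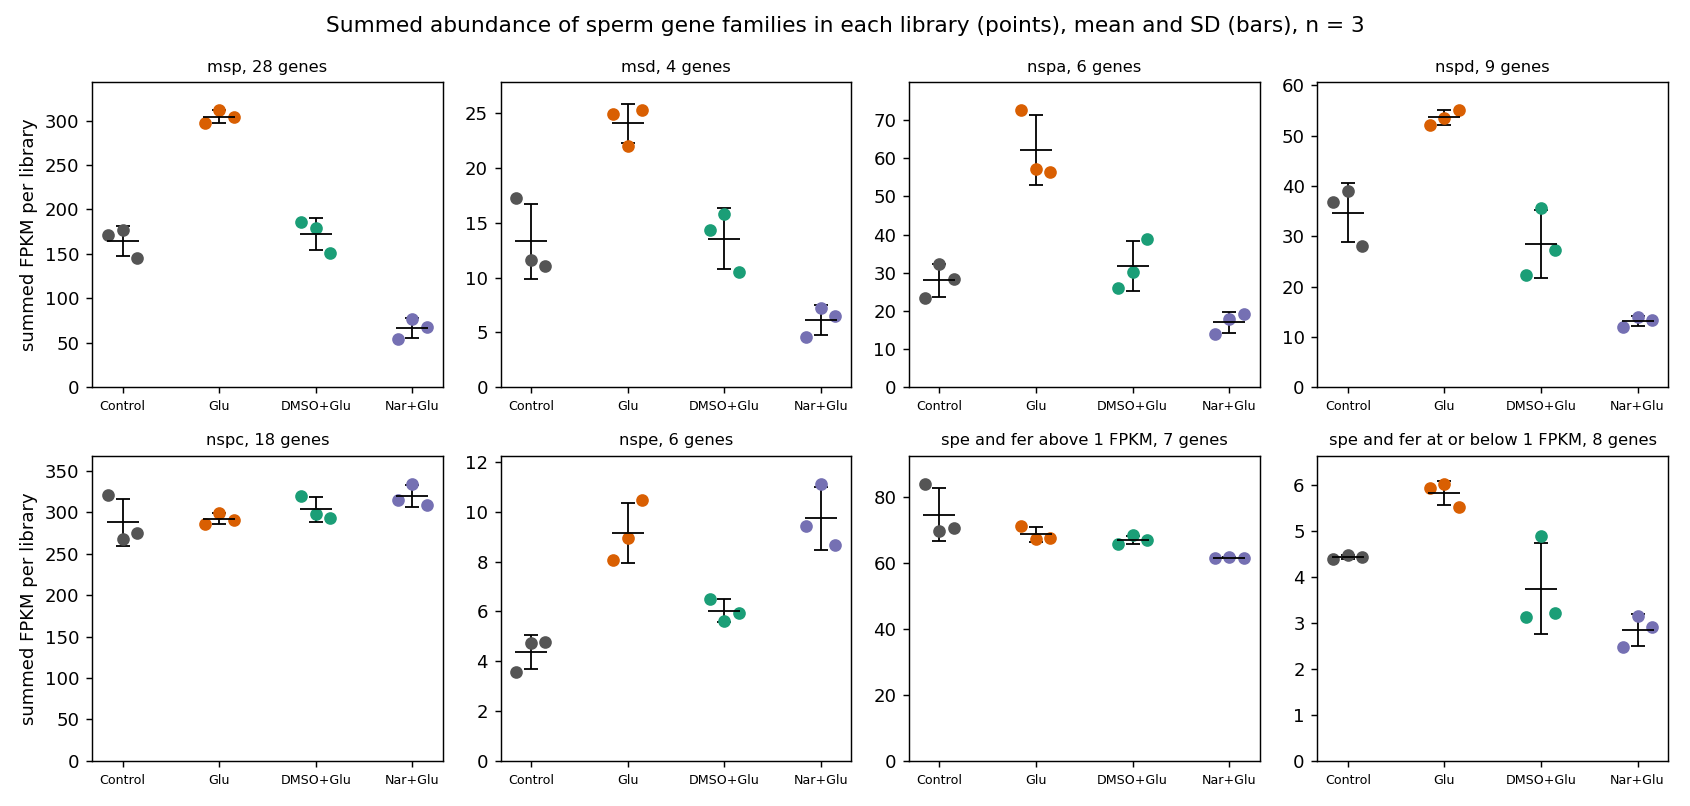
Summed FPKM (vertical axis) of 8 groups of sperm genes in each of the 12 libraries (points), by treatment (horizontal axis), with the mean and SD of 3 libraries as bars. The msp, msd, nspa and nspd sums were highest in Glu and lowest in Nar+Glu, whereas the nspc sums lay between 267 and 335 in all libraries and the nspe sums were higher in both Glu and Nar+Glu than in Control.

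The order of group means, with Glu highest and Nar+Glu lowest, was the same in 28 of 28 msp genes, against 6.74% of all genes in the table. The copies may share reads, so these may not be 28 separate observations. The most abundant copy, msp-31 (chromosome II, 4916179 to 4916562), was measured at 15.5, 13.1 and 11.7 FPKM in the Control libraries, 23.5, 21.5 and 22.1 for Glu, 12.6, 13.1 and 11.97 for DMSO+Glu and 5.02, 5.496 and 3.57 for Nar+Glu. Its Glu libraries were all above the Control libraries, and its Nar+Glu libraries were all below those of the other groups. The change of msp-31 was 0.70 ± 0.12 (SE, adjusted p 0.00147) for Glu against Control, -0.78 ± 0.12 (SE, adjusted p 0.00495) for DMSO+Glu against Glu and -1.27 ± 0.12 (SE, adjusted p 2.86e-05) for Nar+Glu against DMSO+Glu. These 3 calls and that against Control (-1.35 ± 0.12 (SE, adjusted p 2.88e-06)) were kept when any library was left out.

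Among the copies on chromosome IV, msp-76 (chromosome IV, 9689015 to 9689398) stood at 10.5, 10.1 and 8.598 FPKM in the Control libraries, 20.9, 13.8 and 16.1 for Glu, 7.55, 11.2 and 9.88 for DMSO+Glu and 1.81, 4.52 and 2.62 for Nar+Glu. It had the largest fall of any msp gene in both comparisons of Nar+Glu, -1.45 ± 0.21 (SE, adjusted p 0.000914) against DMSO+Glu and -1.48 ± 0.21 (SE, adjusted p 0.000134) against Control. Its rise in Glu, 0.72 ± 0.21 (SE, adjusted p 0.0206), was lost without Control replicate 3 or Glu replicate 1 or 3 (adjusted p 0.0517 to 0.0736). The copy msp-51 (chromosome IV, 5294957 to 5295340) was measured at 7.07, 8.65 and 8.75 FPKM in the Control libraries, 17.2, 16.4 and 15.8 for Glu, 9.22, 8.23 and 9.28 for DMSO+Glu and 2.91, 3.76 and 1.79 for Nar+Glu. The Glu libraries lay above all others and the Nar+Glu libraries below all others. The fall of msp-51 in Nar+Glu was -1.41 ± 0.15 (SE, adjusted p 6.76e-05) against DMSO+Glu, after a rise of 0.93 ± 0.15 (SE, adjusted p 0.000815) in Glu against Control. Its fall of DMSO+Glu against Glu, -0.82 ± 0.15 (SE, adjusted p 0.0162), was lost without Glu replicate 1, 2 or 3 or DMSO+Glu replicate 1 or 2 (adjusted p 0.0511 to 0.0802) and with a pseudocount of 0.1 (0.0507).

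The copy msp-77 (chromosome IV, 9894631 to 9895014) stood at 8.25, 7.58 and 5.44 FPKM in the Control libraries, 13.4, 11.7 and 11.8 for Glu, 8.35, 7.74 and 7.35 for DMSO+Glu and 1.82, 2.93 and 2.58 for Nar+Glu. Control and DMSO+Glu overlapped, with Glu above both and Nar+Glu below both. Its change was 0.73 ± 0.14 (SE, adjusted p 0.00304) in Glu against Control and -1.37 ± 0.14 (SE, adjusted p 5.15e-05) in Nar+Glu against DMSO+Glu, both kept with any library left out. The copy msp-79 (chromosome IV, 9766771 to 9767154) was measured at 6.02, 7.39 and 4.57 FPKM in the Control libraries, 10.6, 10.1 and 12.001 for Glu, 5.31, 5.24 and 5.18 for DMSO+Glu and 1.26, 2.27 and 3.52 for Nar+Glu. Here too the Nar+Glu libraries were all below the rest. Its difference between DMSO+Glu and Glu, -0.93 ± 0.20 (SE, adjusted p 0.0378), was the largest of the msp genes in that comparison and was lost without Control replicate 1, Glu replicate 1, 2 or 3 or DMSO+Glu replicate 1, 2 or 3 (adjusted p 0.0597 to 0.148), with the replicate block (adjusted p 0.0557), with a pseudocount of 0.1 (0.103) and without a variance trend (0.0703).

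The largest msp rise in Glu was that of msp-142 (chromosome II, 5797927 to 5798310), a low copy at 2.0999, 1.59 and 1.595 FPKM in the Control libraries, 5.295, 3.499 and 5.95 for Glu, 1.22, 3.56 and 3.26 for DMSO+Glu and 0.369, 1.15 and 0.927 for Nar+Glu. It rose by 1.08 ± 0.26 (SE, adjusted p 0.00824). The DMSO+Glu and Nar+Glu libraries did not overlap, with a change of -0.98 ± 0.26 (SE, adjusted p 0.0279) that was lost without DMSO+Glu replicate 2 or 3 or Nar+Glu replicate 1 or 3 (adjusted p 0.0609 to 0.106). At the other end, msp-38, chosen for mention after its values were seen, had the smallest fall in Nar+Glu against DMSO+Glu (-0.16 ± 0.20 (SE, adjusted p 0.648)). It was measured at 2.09, 2.07 and 1.17 FPKM in the Control libraries, 2.61, 4.72 and 4.02 for Glu, 1.94, 0.954 and 1.72 for DMSO+Glu and 1.02, 1.297 and 1.41 for Nar+Glu, so that its DMSO+Glu and Nar+Glu libraries overlapped.

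In Glu against Control, 23 of 28 msp genes were called higher and 0 lower, where 12.6% of all tested genes were called higher and 18.7% lower (31.3% in all). All 28 had a positive change, from 0.44 to 1.08, with a median of 0.78 beside -0.06 for all genes. In 27 of the 28, all Glu libraries lay above all Control libraries, against 18.1% of the genes in the table. The count of msp genes called higher was 17 to 25 when each library was left out in turn, lowest without Control replicate 3. Over all genes, the 1532 called higher became 983 without that library.

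In Nar+Glu against DMSO+Glu, 25 of 28 msp genes were called lower and 0 higher, where 5.0% of all genes were called lower and 4.87% higher (9.87% in all). The changes ran from -1.45 to -0.16 with a median of -1.05, beside -0.01 for all genes, and the median ratio of means was 0.410. All Nar+Glu libraries lay below all DMSO+Glu libraries in 26 of the 28 genes, against 16.5% of the genes in the table. Leaving out each library in turn gave 20 to 26 msp genes called lower, where the 607 called lower over all genes became 281 to 730. This comparison and that of Glu with Control share no library, although 1 fit gives both their spread. Of the msp genes, 21 were called both higher in Glu and lower in Nar+Glu, that is 91.3% of those higher in Glu and 84% of those lower in Nar+Glu. Over all genes tested, 124 were called in both, 8.09% of those higher in Glu and 20.4% of those lower in Nar+Glu.

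The solvent comparison also involved the msp genes. In DMSO+Glu against Glu, 10 of 28 msp genes were called lower and 0 higher, where 0.872% of all genes were called lower and 0.379% higher (1.25% in all). All 28 changes were negative, from -0.93 to -0.48, with a median of -0.74, beside a median over all genes of -3.42e-06. In 25 of the 28, all DMSO+Glu libraries lay below all Glu libraries, against 8.64% of the genes in the table, and in 0 the reverse, against 6.73%. The number called lower fell to 5 without Glu replicate 2 or 3, to 6 without DMSO+Glu replicate 1 or 3, and was 14 without Nar+Glu replicate 1. Over all genes, the 106 called lower became 52, 44, 51, 51 and 120 in these fits. Before adjustment, 27 of the 28 had p below 0.05. This comparison shares its Glu libraries with that of Glu and Control, so the values of both stand side by side and are not independent.

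In Nar+Glu against Control, 25 of 28 msp genes were called lower and 0 higher, where 33.2% of all genes were called lower and 21.6% higher (54.8% in all). The median change was -1.03, beside -0.09 for all genes, and the median ratio of means was 0.395. In 25 of the 28, all Nar+Glu libraries lay below all Control libraries, against 30.8% of the genes in the table. The naringin group thus lay below its solvent control and also below worms on no added glucose. Within each of the 4 comparisons, all 28 msp changes had the same sign. Another fit had a library covariate and no shared spread. The covariate was the sum of log2(FPKM + 1) over the nonzero genes of a library below their upper quartile. At the same adjusted p, that fit called 1 msp gene in Glu against Control and 0 in the other 3 comparisons. Before adjustment that fit gave p below 0.05 to 16 msp genes, all higher, in Glu against Control, and to 11 in Nar+Glu against DMSO+Glu, 18 in DMSO+Glu against Glu and 11 in Nar+Glu against Control, all lower. In all, it called 2 of the 12151 genes in Glu against Control and none in Nar+Glu against DMSO+Glu, where the limma fit called 3808 and 1199.

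The msp genes lie in clusters on 2 chromosomes, 10 on chromosome II between 4785898 and 5810330 and 18 on chromosome IV between 5055631 and 10143740. In Glu against Control, 7 of 10 on II and 16 of 18 on IV were called higher, with medians of 0.74 and 0.78. In Nar+Glu against DMSO+Glu, 8 of 10 and 17 of 18 were called lower, with medians of -0.96 and -1.09. The sum of the chromosome II copies was 49.2, 47.8 and 36.6 FPKM in the Control libraries, 79.7, 80.2 and 76.3 for Glu, 48.6, 47.9 and 39.2 for DMSO+Glu and 13.98, 18.5 and 18.1 for Nar+Glu. That of the chromosome IV copies was 122, 129 and 109 FPKM in the Control libraries, 218, 232 and 228 for Glu, 137, 131 and 112 for DMSO+Glu and 40.2, 57.8 and 49.7 for Nar+Glu. For both chromosomes the sum of every Nar+Glu library was below that of every library of the other groups.

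**Figure D2:**
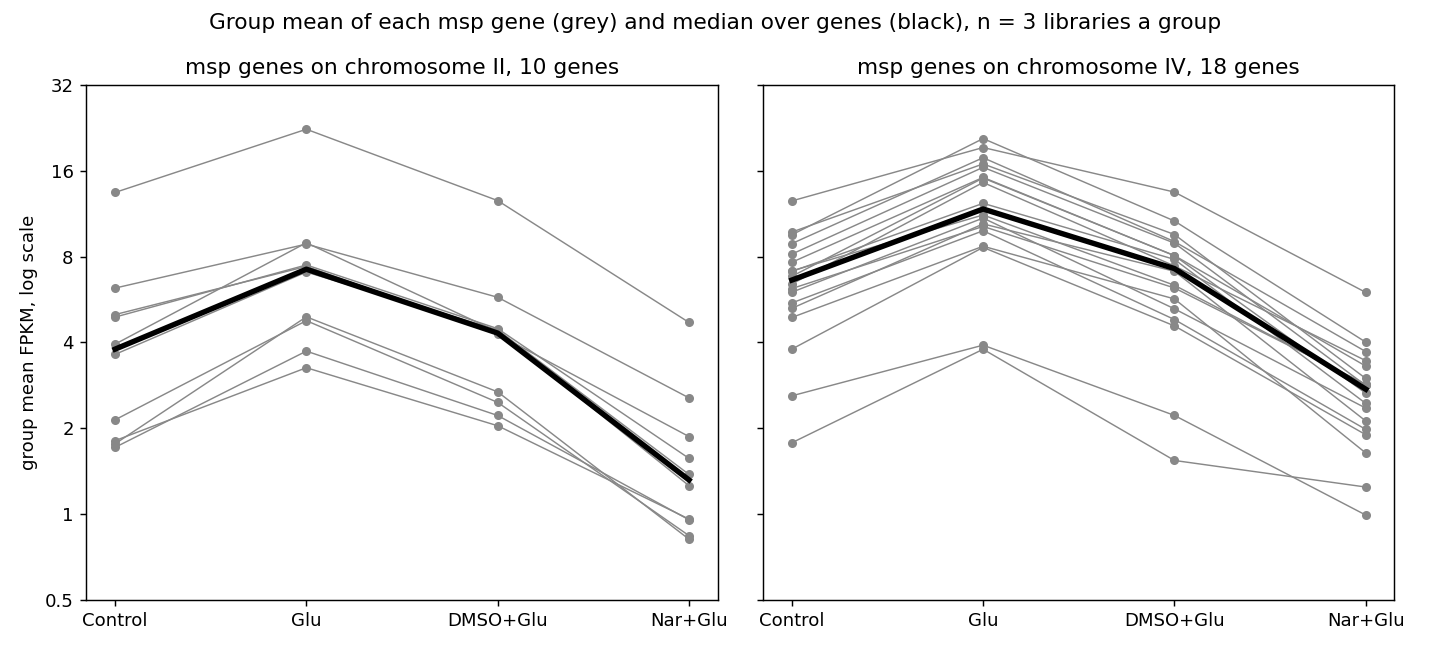
Mean FPKM of each msp gene (grey lines, vertical axis, log scale) in the 4 groups (horizontal axis, n = 3 libraries each), split by chromosome, with the median over genes in black. All 28 lines peak in Glu and have their lowest point in Nar+Glu.

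The msd genes, whose products carry a major sperm protein domain, moved in the same directions. All 4 were called higher in Glu against Control (median 0.70), 4 lower in Nar+Glu against DMSO+Glu (median -0.72) and 4 lower in Nar+Glu against Control (median -0.71), but 0 in DMSO+Glu against Glu (median -0.69), where all 4 had p below 0.05 in limma before adjustment. Among all genes, 12.6% were called higher in the first, and 5.0%, 33.2% and 0.872% lower in the others, in that order. Their sum was 17.3, 11.6 and 11.1 FPKM in the Control libraries, 24.95, 22.1 and 25.3 for Glu, 14.4, 15.8 and 10.5 for DMSO+Glu and 4.61, 7.24 and 6.497 for Nar+Glu. The highest of them, msd-4 (chromosome III, 4868414 to 4868743), was measured at 6.04, 4.18 and 4.55 FPKM in the Control libraries, 8.77, 6.78 and 9.002 for Glu, 5.49, 4.87 and 4.19 for DMSO+Glu and 1.48, 3.16 and 0.896 for Nar+Glu. Its fall in Nar+Glu, -1.11 ± 0.22 (SE, adjusted p 0.00782), held with any library left out, whereas its rise in Glu, 0.64 ± 0.22 (SE, adjusted p 0.0442), was lost without Control replicate 2 or 3, Glu replicate 1 or 3 or DMSO+Glu replicate 2 (adjusted p 0.0529 to 0.131) and with a pseudocount of 0.1, no filter, quantile normalization or no variance trend.

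The nematode-specific peptide genes did not move as 1 family. The nspd genes, a family known from sperm, had 4 of 8 tested members called higher in Glu, 5 lower in Nar+Glu against DMSO+Glu, 2 lower in DMSO+Glu against Glu and 8 lower in Nar+Glu against Control. The shares of all genes were 12.6% higher in the first and 5.0%, 0.872% and 33.2% lower in the others. All 9 nspd genes in the table had the order with Glu highest and Nar+Glu lowest. Summed, they reached 36.9, 39.1 and 27.9995 FPKM in the Control libraries, 52.1, 53.6 and 55.1 for Glu, 22.3, 35.7 and 27.2 for DMSO+Glu and 11.98, 13.9 and 13.4 for Nar+Glu.

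Of these, nspd-2 (chromosome IV, 9844060 to 9844272) was measured at 5.39, 6.89 and 4.24 FPKM in the Control libraries, 10.7, 7.32 and 7.81 for Glu, 2.36, 4.202 and 3.24 for DMSO+Glu and 1.89, 1.08 and 1.66 for Nar+Glu. Its fall with the solvent, -1.18 ± 0.20 (SE, adjusted p 0.00685), was the largest of all sperm genes in that comparison, and its DMSO+Glu and Glu libraries did not overlap. Its fall in Nar+Glu against DMSO+Glu (-0.74 ± 0.20 (SE, adjusted p 0.0291)) was lost without DMSO+Glu replicate 2 or 3 or Nar+Glu replicate 2 or 3 (adjusted p 0.0636 to 0.0998). Its rise in Glu (0.57 ± 0.20 (SE, adjusted p 0.0403)) was lost without Control replicate 1 or 3 or Glu replicate 1 or 3 (adjusted p 0.0701 to 0.147) and with a pseudocount of 0.1, quantile normalization, no variance trend or the replicate block. The fall of nspd-2 against Control was -1.35 ± 0.20 (SE, adjusted p 0.000152). The gene nspd-10 (chromosome I, 10878105 to 10878326) stood at 3.56, 2.43 and 3.27 FPKM in the Control libraries, 1.94, 3.904 and 3.695 for Glu, 1.202, 2.01 and 0.279 for DMSO+Glu and 0, 0.292 and 0.869 for Nar+Glu. Control and Glu overlapped there, and the change from Control to Nar+Glu, -1.60 ± 0.30 (SE, adjusted p 0.000837), was the largest fall of any sperm gene in that comparison.

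The nspa genes lie within a short stretch of chromosome V, from 14826948 to 14889511, and all 6 had the same order of groups as the msp genes. All 4 tested members were called higher in Glu (median 1.13), 3 lower in Nar+Glu against DMSO+Glu (median -0.78), 1 lower in DMSO+Glu against Glu (median -0.85) and 2 lower in Nar+Glu against Control (median -0.51). Beside these stand 12.6% of all genes called higher in the first, and 5.0%, 0.872% and 33.2% lower in the others. The 2 largest rises of all sperm genes in Glu were nspa-5 (chromosome V, 14878348 to 14878452, 1.32 ± 0.26 (SE, adjusted p 0.00291)) and nspa-8 (chromosome V, 14826948 to 14827052, 1.24 ± 0.18 (SE, adjusted p 0.000408)). Their RNAs were measured, for nspa-5, at 3.08, 4.63 and 1.897 FPKM in the Control libraries, 9.89, 8.22 and 9.27 for Glu, 3.15, 4.69 and 3.999 for DMSO+Glu and 3.24, 1.12 and 3.04 for Nar+Glu. For nspa-8 the values were 3.08, 2.13 and 2.65 FPKM in the Control libraries, 6.49, 7.33 and 8.78 for Glu, 3.63, 3.95 and 6.26 for DMSO+Glu and 1.43, 1.47 and 2.37 for Nar+Glu. In both genes every Glu library lay above every library of the other groups. The most abundant member, nspa-1 (chromosome V, 14886803 to 14886907), stood at 8.83, 13.6 and 13.2 FPKM in the Control libraries, 31.96, 23.5 and 20.3 for Glu, 9.897, 11.3 and 15.1 for DMSO+Glu and 4.56, 8.29 and 7.04 for Nar+Glu. It rose by 1.02 ± 0.21 (SE, adjusted p 0.00428) in Glu. Its falls in DMSO+Glu against Glu (-0.997 ± 0.21 (SE, adjusted p 0.0363)) and in Nar+Glu against DMSO+Glu (-0.79 ± 0.21 (SE, adjusted p 0.0314)) were lost, respectively, without Glu replicate 1 or 2 or DMSO+Glu replicate 1 or 2 (adjusted p 0.0914 to 0.167) and without DMSO+Glu replicate 2 or 3 or Nar+Glu replicate 1 or 3 (adjusted p 0.0518 to 0.121). With a pseudocount of 0.1 or median-ratio scaling the former call was also lost (adjusted p 0.0567 and 0.0502), and without a variance trend both were.

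The nspc genes behaved differently. All 18 lie on the X chromosome, and no other member of the table lies there. In Glu against Control, 1 was called higher and 1 lower, where 12.6% of all genes were called higher and 18.7% lower. In Nar+Glu against DMSO+Glu and in DMSO+Glu against Glu 0 were called, where 9.87% and 1.25% of all genes were, in either direction. Before adjustment, 1 had p below 0.05 in each direction in Nar+Glu against DMSO+Glu and 0 did in DMSO+Glu against Glu. The medians were -0.00079 for Glu against Control, 0.07 for Nar+Glu against DMSO+Glu, 0.06 for DMSO+Glu against Glu and 0.12 for Nar+Glu against Control. Only 1 of 18 had Glu highest and Nar+Glu lowest. The most abundant of all members, nspc-15 (chromosome X, 12360744 to 12361159), was measured at 49.4, 40.2 and 35.8 FPKM in the Control libraries, 44.97, 45.997 and 42.4 for Glu, 43.5, 43.9 and 41.7 for DMSO+Glu and 49.4, 48.9 and 49.2 for Nar+Glu. Every Nar+Glu library was above every Glu and DMSO+Glu library, but the Control libraries overlapped all 3 other groups. The call against Control, 0.24 ± 0.09 (SE, adjusted p 0.0327), was lost without Control replicate 2 or 3 or Nar+Glu replicate 1, 2 or 3 (adjusted p 0.062 to 0.17), in a fit of only the libraries compared and without a variance trend, and its sign turned with the library covariate. In the opposite direction, nspc-4 (chromosome X, 8537956 to 8538362) stood at 13.4, 11.5 and 12.5 FPKM in the Control libraries, 9.61, 9.58 and 10.2 for Glu, 11.3, 9.58 and 9.19 for DMSO+Glu and 9.696, 12.04 and 8.59 for Nar+Glu. Its change was -0.32 ± 0.11 (SE, adjusted p 0.0452) in Glu and -0.29 ± 0.11 (SE, adjusted p 0.0429) in Nar+Glu, both against Control. The first was lost without Control replicate 1 or 3, Glu replicate 1, 2 or 3, DMSO+Glu replicate 2 or Nar+Glu replicate 1 (adjusted p 0.0524 to 0.139) and the other without Control replicate 1 or 3, Glu replicate 1, 2 or 3 or Nar+Glu replicate 1 or 3 (adjusted p 0.0505 to 0.197), and both with median-ratio scaling, quantile normalization or no variance trend. The call in Glu was also lost with the replicate block (adjusted p 0.0524) or no filter (0.054), and that in Nar+Glu in a fit of only the libraries compared (0.066). Besides nspc-15, nspc-9, nspc-10, nspc-12 and nspc-13 were called higher in Nar+Glu against Control, by 0.41, 0.35, 0.27 and 0.54 (adjusted p 0.0367, 0.00767, 0.00941 and 0.00338). In that comparison 5 of 18 nspc genes were thus called higher, near the 21.6% of all genes. The 1 called lower was below the 33.2% of all genes. The call of nspc-9 was lost without Control replicate 2 or 3 or Nar+Glu replicate 2 or 3 (adjusted p 0.0828 to 0.186). That of nspc-13 in Glu against Control, 0.38 ± 0.13 (SE, adjusted p 0.0374), was lost without Control replicate 2 or 3 or Glu replicate 1, 2 or 3 (adjusted p 0.0592 to 0.123).

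The nspe genes, 6 neighbours on chromosome II, did not follow the msp genes. Summed, they stood at 3.58, 4.74 and 4.76 FPKM in the Control libraries, 8.07, 8.96 and 10.5 for Glu, 6.52, 5.64 and 5.95 for DMSO+Glu and 9.44, 11.1 and 8.66 for Nar+Glu, so that Glu and Nar+Glu overlapped and lay above Control and DMSO+Glu. By gene, 5 of 6 had a higher mean in Glu than in Control and 4 of 6 a higher mean in Nar+Glu than in DMSO+Glu, and nspe-2 was highest in Control. Only 3 passed the filter on low values, with means of 1.06 to 2.23 FPKM, and they could pass it through the groups in which they are high, so their counts (2 called higher in Glu, 1 lower with the solvent and 2 higher in Nar+Glu against each of DMSO+Glu and Control) are no support. In nspe-6 (chromosome II, 12615828 to 12616181) the libraries gave 0.411, 0.398 and 0.285 FPKM in the Control libraries, 1.79, 1.42 and 1.87 for Glu, 0.222, 0.427 and 0.702 for DMSO+Glu and 1.78, 2.19 and 1.1995 for Nar+Glu. It rose in Glu by 0.98 ± 0.17 (SE, adjusted p 0.0015), was called lower in DMSO+Glu against Glu, -0.90 ± 0.17 (SE, adjusted p 0.0173), and rose in Nar+Glu against DMSO+Glu by 0.91 ± 0.17 (SE, adjusted p 0.00542). The solvent call was lost without Glu replicate 1 or 3 or DMSO+Glu replicate 1 or 2 (adjusted p 0.0548 to 0.0985). For nspe-4 (chromosome II, 12612518 to 12614023) the values were 0.3898, 0.404 and 0.5405 FPKM in the Control libraries, 1.14, 1.67 and 2.3996 for Glu, 1.26, 1.56 and 2.07 for DMSO+Glu and 2.64, 3.08 and 3.36 for Nar+Glu. It had the largest rise of any member in Nar+Glu against Control, 1.48 ± 0.17 (SE, adjusted p 2.86e-05), and rose by 0.90 ± 0.17 (SE, adjusted p 0.00286) in Glu. The rise of nspe-4 against DMSO+Glu, 0.62 ± 0.17 (SE, adjusted p 0.0375), was lost without DMSO+Glu replicate 1 or 2 or Nar+Glu replicate 1, 2 or 3 (adjusted p 0.061 to 0.153) and with a pseudocount of 0.1 or quantile normalization.

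The nspb genes were low, with 3 of 11 showing Glu highest and Nar+Glu lowest. In Glu against Control, 10 of 11 had the higher mean in Glu, with a median change of 0.46, beside -0.06 for all genes. Low genes could enter the table through the group where they are high, so this count is no support. Of 7 tested there, 1 was called higher and 0 lower, beside 12.6% and 18.7% of all genes. In Nar+Glu against DMSO+Glu they were mixed, with 4 means higher and 7 lower. Against Control, 3 of the 7 tested were called higher in Nar+Glu and 0 lower, beside 21.6% and 33.2% of all genes. The 3 called in Nar+Glu against Control were higher, namely nspb-11 (chromosome II, 12907370 to 12907783, 1.06 ± 0.28 (SE, adjusted p 0.00699)), nspb-12 (0.64 ± 0.21 (SE, adjusted p 0.0186)) and nspb-10 (0.52 ± 0.21 (SE, adjusted p 0.0462)). In nspb-11 the libraries were at 0.516, 1.01 and 1.02 FPKM in the Control libraries, 1.64, 0.598 and 3.498 for Glu, 1.601, 2.51 and 3.09 for DMSO+Glu and 3.08, 2.63 and 2.75 for Nar+Glu, with Control below every DMSO+Glu and Nar+Glu library. The calls of nspb-12 and nspb-10 were lost, respectively, without Control replicate 2 or Nar+Glu replicate 3 (adjusted p 0.0715 to 0.0839) and without Control replicate 1, 2 or 3, Glu replicate 2 or 3, DMSO+Glu replicate 1 or Nar+Glu replicate 1 or 3 (adjusted p 0.0522 to 0.246). In nspb-3 all 3 Control libraries were listed at 0, so that no ratio is given.

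Among the ssp genes, whose products are small proteins with a major sperm protein domain, 7 of 9 had Glu highest and Nar+Glu lowest. Of the 7 tested, 1 was called higher in Glu, 0 in DMSO+Glu against Glu, 2 lower in Nar+Glu against DMSO+Glu and 4 lower in Nar+Glu against Control. Of all genes, 12.6% were called higher in Glu, near the share of the ssp genes, and 5.0% and 33.2% lower in the latter comparisons. Before adjustment, limma gave p below 0.05 to 2 ssp genes, both lower, in DMSO+Glu against Glu. Their sum was 18.02, 17.8 and 17.004 FPKM in the Control libraries, 24.2, 24.4 and 25.9 for Glu, 20.6, 19.3 and 18.1 for DMSO+Glu and 10.6, 13.05 and 9.49 for Nar+Glu. The most abundant of them, ssp-37 (chromosome I, 12561040 to 12561560), did not share this order and was not called in any comparison. Its libraries stood at 2.403, 5.22 and 4.09 FPKM in the Control libraries, 4.51, 4.38 and 3.66 for Glu, 4.42, 5.29 and 5.23 for DMSO+Glu and 4.68, 6.05 and 4.02 for Nar+Glu, and all 4 groups overlapped.

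**Figure D3:**
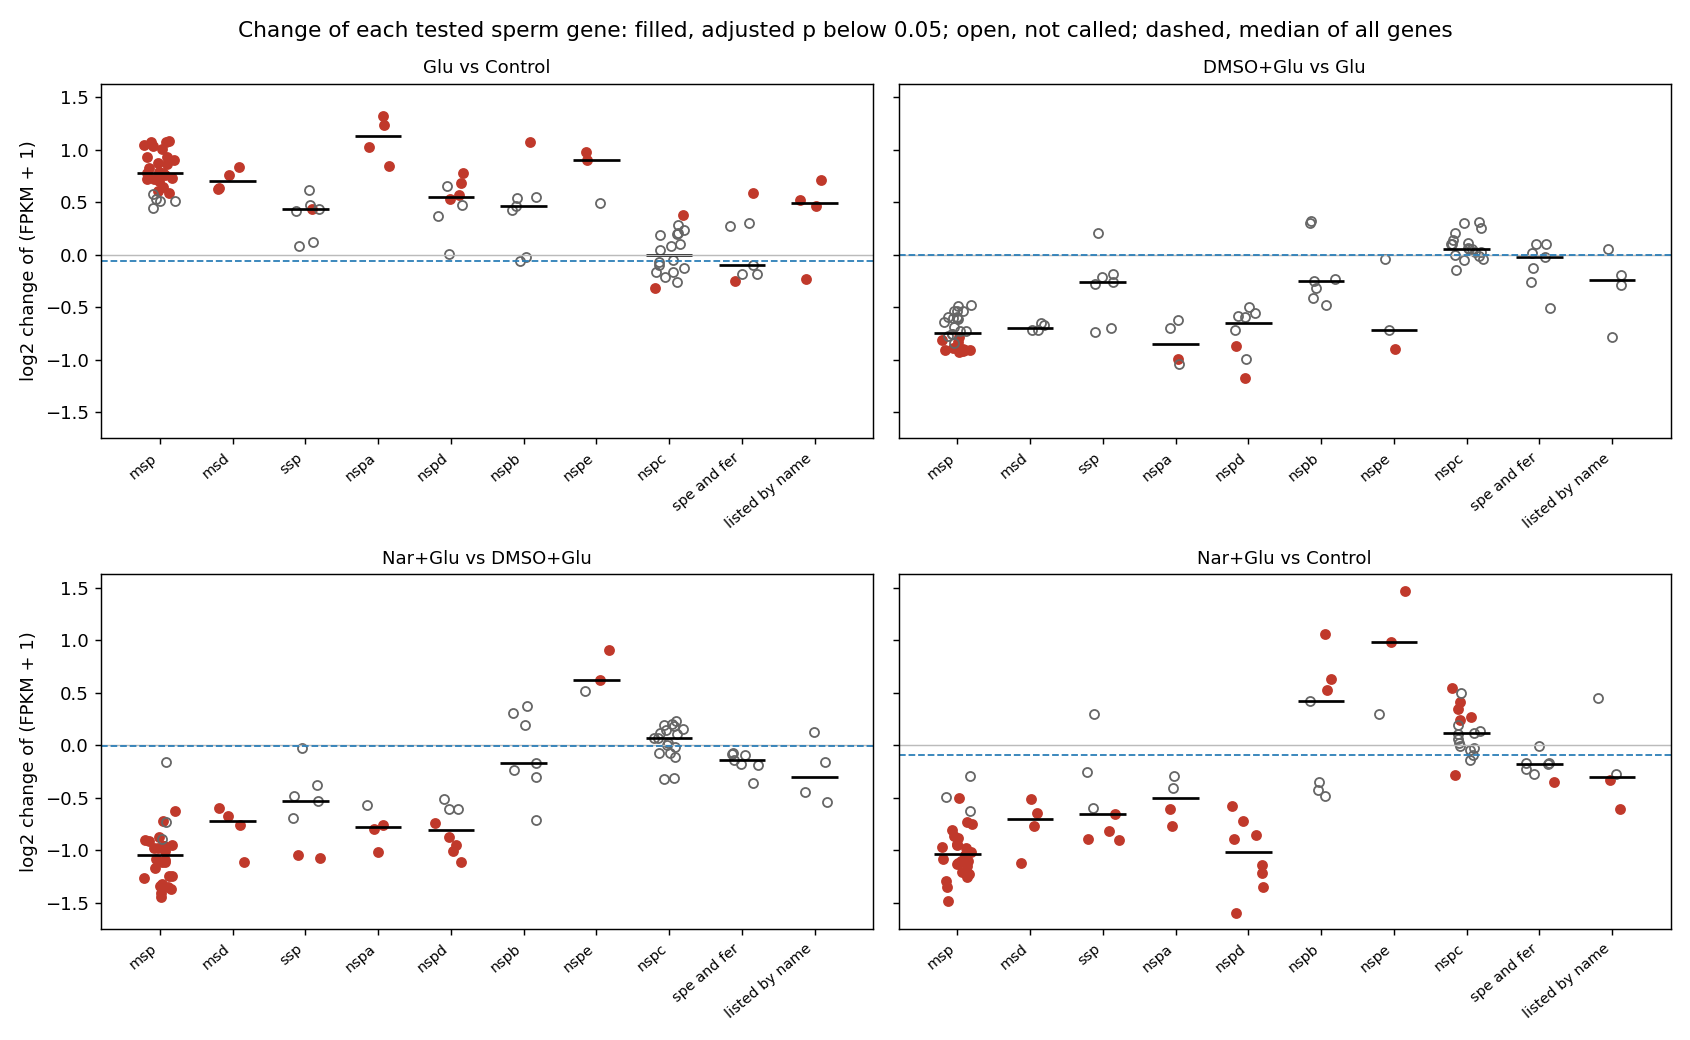
Change of each tested sperm gene (points, log2 of FPKM + 1, vertical axis) by family (horizontal axis) in the 4 comparisons, filled where called, with the family median as a bar and the median of all genes dashed. The msp bars lie at 0.78, -0.74, -1.05 and -1.03 in the panels from top left to bottom right, whereas the nspc and the spe and fer bars lie close to the dashed line.

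The spe and fer genes were next set beside the msp genes. Of the 15 in the table, 7 passed the filter and 8 had a mean at or below 1 FPKM. The most abundant were spe-39 and spe-48. spe-39 (chromosome V, 6785457 to 6787864), which acts in vesicle traffic in sperm and in other cells, was measured at 35.4, 28.3 and 30.5 FPKM in the Control libraries, 26.9, 25.5 and 25.6 for Glu, 24.98, 27.7 and 24.2 for DMSO+Glu and 24.8, 23.6 and 24.3 for Nar+Glu. It was called lower in Glu, -0.25 ± 0.08 (SE, adjusted p 0.0286), and in Nar+Glu against Control, -0.35 ± 0.08 (SE, adjusted p 0.00265). The former call was lost without Control replicate 1 or 3 or Glu replicate 2 or 3 (adjusted p 0.0513 to 0.105), with quantile normalization and in a fit of only the libraries compared. spe-44, a transcription factor that switches on sperm genes, stood at 9.97, 6.81 and 7.99 FPKM in the Control libraries, 6.92, 6.92 and 7.33 for Glu, 7.95, 7.1002 and 7.85 for DMSO+Glu and 6.72, 6.89 and 6.92 for Nar+Glu and was not called (change in Glu -0.19 ± 0.11 (SE, adjusted p 0.199)). spe-48 stood between 21.1 and 26.5 FPKM in all libraries, with a change of -0.10 ± 0.07 (SE, adjusted p 0.281) in Glu and -0.08 ± 0.07 (SE, adjusted p 0.507) in Nar+Glu against DMSO+Glu. spe-5, a V-ATPase subunit, had -0.19 and -0.09 for these comparisons, with no call.

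The remaining genes of sperm formation were low. spe-15, a myosin VI that sorts components between spermatid and residual body, was measured at 2.704, 2.04 and 2.197 FPKM in the Control libraries, 3.03, 2.81 and 3.17 for Glu, 2.02, 2.31 and 2.75 for DMSO+Glu and 1.95, 1.805 and 2.06 for Nar+Glu. Its Glu libraries lay above all others, although its change of 0.28 ± 0.13 (SE, adjusted p 0.101) was not called. For spe-6, a casein kinase I needed to form spermatids, the values were 2.04, 1.87 and 0.895 FPKM in the Control libraries, 1.87, 2.67 and 1.91 for Glu, 1.88, 1.91 and 1.802 for DMSO+Glu and 1.47, 1.69 and 1.47 for Nar+Glu, with overlap between Control and each other group. spe-4, a presenilin, was below the filter at 0.579, 0.736 and 0.624 FPKM in the Control libraries, 0.883, 0.816 and 0.742 for Glu, 0.389, 0.774 and 0.392 for DMSO+Glu and 0.151, 0.348 and 0.485 for Nar+Glu. Its Glu libraries were all above Control, and its Nar+Glu libraries were all below Control. spe-26, a kelch protein that binds actin, was at 0.531, 0.409 and 0.715 FPKM in the Control libraries, 0.807, 0.826 and 0.864 for Glu, 0.316, 0.427 and 0.404 for DMSO+Glu and 0.273, 0.375 and 0.579 for Nar+Glu, again with Glu above every other library.

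Genes of activation, the step by which a round spermatid extends its pseudopod, were all below the filter. fer-1, a ferlin needed for membranous organelles to fuse, was measured at 0.466, 0.644 and 0.563 FPKM in the Control libraries, 0.671, 0.734 and 0.678 for Glu, 0.506, 0.651 and 0.6197 for DMSO+Glu and 0.446, 0.3804 and 0.386 for Nar+Glu. Its Glu libraries lay above Control and its Nar+Glu libraries below all others. spe-8, a tyrosine kinase of the hermaphrodite activation pathway, stood at 0.548, 0.358 and 0.509 FPKM in the Control libraries, 0.621, 0.533 and 0.483 for Glu, 0.162, 0.436 and 0.188 for DMSO+Glu and 0.344, 0.3599 and 0.216 for Nar+Glu. Its partner spe-12, a membrane protein, stood at 0.217, 0.4198 and 0.346 FPKM in the Control libraries, 0.882, 0.387 and 0.567 for Glu, 0.234, 0.464 and 0 for DMSO+Glu and 0, 0.0923 and 0.161 for Nar+Glu, with Nar+Glu below both Control and Glu. spe-47, an MSP-domain protein that holds activation back, was at 0.441, 0.184 and 0.474 FPKM in the Control libraries, 0.384, 1.002 and 0.605 for Glu, 0.409, 0.392 and 0.615 for DMSO+Glu and 0.246, 0.575 and 0.181 for Nar+Glu, with overlapping groups. Also below the filter, spe-46 stood at 0.463, 0.516 and 0.297 FPKM in the Control libraries, 0.867, 1.06 and 0.855 for Glu, 0.364, 0.782 and 0.456 for DMSO+Glu and 0.254, 0.5296 and 0.398 for Nar+Glu, with Glu above every other library.

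For contact with the oocyte, the table holds spe-41, also named trp-3, a calcium channel that sperm need to fertilize. It went against the other low genes, at 1.15, 1.21 and 0.903 FPKM in the Control libraries, 0.815, 0.6697 and 0.737 for Glu, 0.759, 0.957 and 0.551 for DMSO+Glu and 0.757, 0.501 and 0.502 for Nar+Glu, with Control above all Glu libraries. The paternal-effect gene spe-11 (chromosome I, 5330578 to 5332169), whose product the sperm brings into the egg and which the embryo needs, was measured at 3.44, 1.99 and 2.13 FPKM in the Control libraries, 4.24, 4.14 and 4.26 for Glu, 2.32, 2.75 and 2.97 for DMSO+Glu and 1.87, 2.23 and 1.55 for Nar+Glu. It was the only spe or fer gene called higher in Glu, by 0.59 ± 0.15 (SE, adjusted p 0.0126), and that call held with any library left out. In Nar+Glu against DMSO+Glu its change was -0.36 ± 0.15 (SE, adjusted p 0.154).

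**Figure D4:**
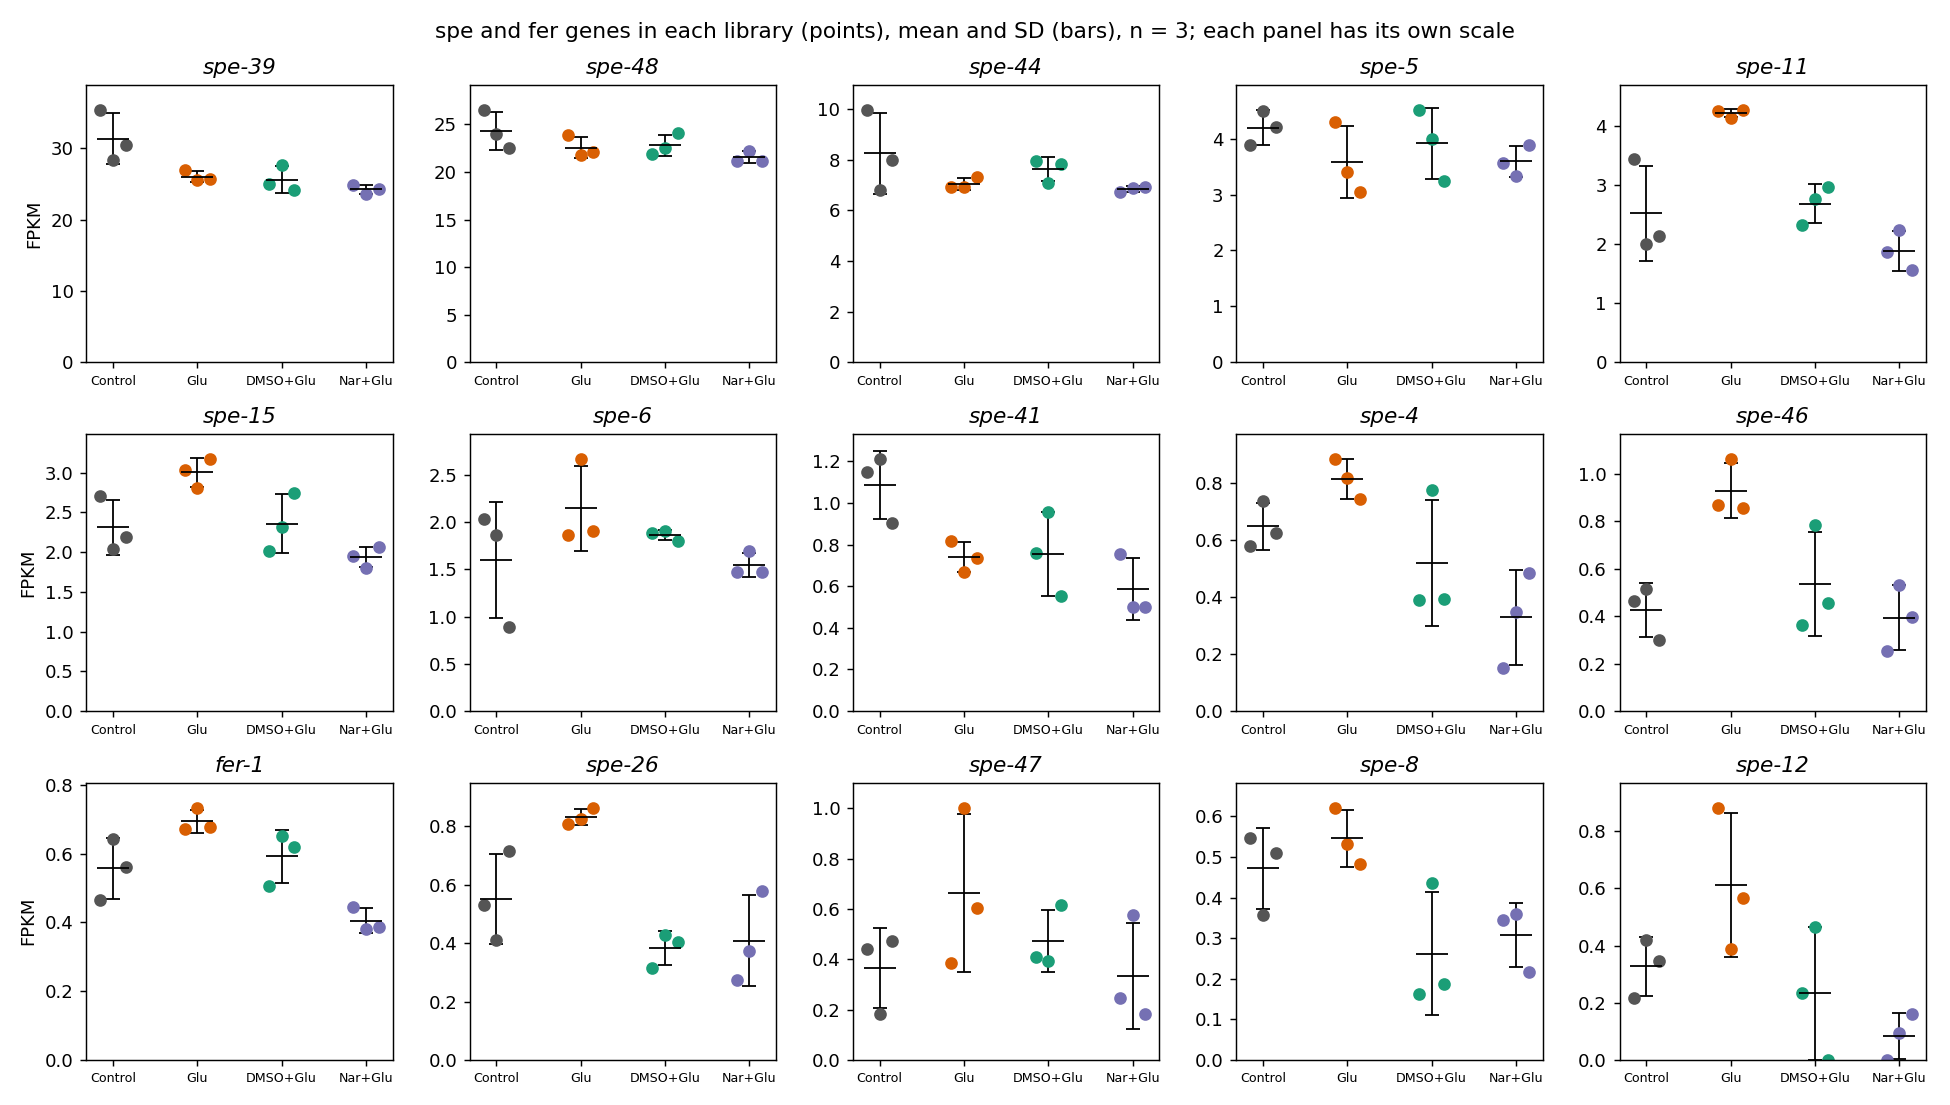
FPKM (vertical axis, 1 scale per panel) of the 15 spe and fer genes in each library (points) of the 4 groups (horizontal axis), with the mean and SD of 3 libraries. The low genes from spe-4 to spe-12, and spe-11, spe-15 and spe-6, have their highest mean in Glu, whereas spe-39, spe-48, spe-44, spe-5 and spe-41 have it in Control.

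The share called was larger among the msp genes than among the spe and fer genes. In Glu against Control, 23 of 28 msp genes were called higher, and 1 of 7 tested spe genes higher and 1 lower. There, 12.6% of all genes were called higher and 18.7% lower. In Nar+Glu against DMSO+Glu it was 25 of 28 lower against 0 of 7, in DMSO+Glu against Glu 10 of 28 against 0 of 7, and in Nar+Glu against Control 25 of 28 against 1 of 7. In these comparisons 5.0%, 0.872% and 33.2% of all genes were called lower. The 7 spe genes are too few to set their counts apart from the shares of all genes. Before adjustment, limma gave p below 0.05 to 27 msp genes and 1 spe gene, spe-11, among the lower in both Nar+Glu against DMSO+Glu and DMSO+Glu against Glu. The medians over the 7 spe genes were -0.10, -0.14, -0.02 and -0.18, against 0.78, -1.05, -0.74 and -1.03 for the msp genes. These are descriptions of lists chosen with results known, and no test of the difference was made.

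The filter divided the spe and fer genes. The 8 genes at or below 1 FPKM, which were not tested, had a median ratio of Glu to Control of 1.38, and the 7 above it one of 0.927. For Nar+Glu to DMSO+Glu the median ratios were 0.723 and 0.897, against 0.410 for the msp genes. Summed, the 8 low genes stood at 4.395, 4.48 and 4.43 FPKM in the Control libraries, 5.93, 6.03 and 5.53 for Glu, 3.14, 4.88 and 3.23 for DMSO+Glu and 2.47, 3.16 and 2.91 for Nar+Glu. Here all Glu libraries were above all others and all Nar+Glu libraries below all Control libraries, although DMSO+Glu overlapped Nar+Glu. The 7 above the filter summed to 83.9, 69.5 and 70.4 FPKM in the Control libraries, 71.1, 67.2 and 67.5 for Glu, 65.6, 68.3 and 66.8 for DMSO+Glu and 61.6, 61.8 and 61.4 for Nar+Glu, with Nar+Glu below every other library and Glu overlapping Control. Of all 15, 8 had Glu highest and Nar+Glu lowest, against 28 of 28 msp genes. When the filter was dropped, the median change of spe and fer genes in Glu against Control became 0.14 and thus turned positive. Each gene in the table had reached a mean of 0.500 FPKM in at least 1 group. A low gene could thus enter through the group where it is high, and 20 spe and fer genes had no row. The Glu ratio and sums of the 8 low genes, and the median without the filter, may partly follow from this and are no support.

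The phosphatases gsp-3 and gsp-4, close copies of protein phosphatase 1 that sperm need for meiosis and motility, had the same order of groups as the msp genes. gsp-4 (chromosome I, 3838290 to 3839673) was measured at 2.397, 1.49 and 1.34 FPKM in the Control libraries, 3.19, 3.596 and 3.55 for Glu, 1.88, 1.85 and 1.09 for DMSO+Glu and 0.4499, 0.756 and 1.204 for Nar+Glu. It was called higher in Glu (0.72 ± 0.19 (SE, adjusted p 0.0136)) and lower in Nar+Glu against Control (-0.61 ± 0.19 (SE, adjusted p 0.0154)). The former was lost without Control replicate 3 (adjusted p 0.051) and the latter without Control replicate 1 or Nar+Glu replicate 1 (adjusted p 0.0695 to 0.0779). For gsp-3 (chromosome I, 4709259 to 4710712) the values were 1.62, 1.41 and 1.26 FPKM in the Control libraries, 2.21, 2.69 and 2.16 for Glu, 1.87, 2.2003 and 1.22 for DMSO+Glu and 1.01, 0.687 and 1.39 for Nar+Glu. Its call in Glu, 0.46 ± 0.17 (SE, adjusted p 0.0476), was lost without Control replicate 1, 2 or 3, Glu replicate 1, 2 or 3, DMSO+Glu replicate 1 or Nar+Glu replicate 1 (adjusted p 0.0565 to 0.14), and with a pseudocount of 0.1, no filter, quantile normalization or the replicate block.

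The other genes listed by name regulate sperm or belong to the male. cpb-1 (chromosome III, 9322310 to 9324913), a CPEB protein that spermatocytes need for meiosis, stood at 37.1, 33.6 and 36.4 FPKM in the Control libraries, 32.5, 27.5 and 30.9 for Glu, 30.9, 32.6 and 30.9 for DMSO+Glu and 28.8, 29.96 and 25.7 for Nar+Glu. Every Control library was above all others. It was called lower in Glu (-0.23 ± 0.08 (SE, adjusted p 0.0354)) and in Nar+Glu against Control (-0.33 ± 0.08 (SE, adjusted p 0.00282)), opposite to the msp genes in Glu. The first call was lost without Control replicate 1 or 3 or Glu replicate 2 or 3 (adjusted p 0.0711 to 0.141), in a fit of only the libraries compared and without a variance trend, and both were lost with quantile normalization. swm-1 (chromosome V, 9054111 to 9054871), a trypsin-inhibitor-like protein that keeps sperm from activating early in males, was measured at 9.71, 4.79 and 6.07 FPKM in the Control libraries, 10.9, 9.93 and 9.03 for Glu, 10.5, 7.97 and 7.39 for DMSO+Glu and 9.49, 8.02 and 10.96 for Nar+Glu. The groups overlapped. Its change in Glu was 0.52 ± 0.19 (SE, adjusted p 0.0468), a call lost without Control replicate 2 or 3, Glu replicate 1, 2 or 3, DMSO+Glu replicate 2 or Nar+Glu replicate 1 (adjusted p 0.0536 to 0.172) and with no filter, quantile normalization, no variance trend or a fit of only the libraries compared. try-5 (chromosome V, 9347044 to 9348687), the seminal fluid protease that activates sperm, was below the filter at 0.0617, 0.201 and 0.126 FPKM in the Control libraries, 0.529, 0.356 and 0.544 for Glu, 0.244, 0.605 and 0.1503 for DMSO+Glu and 0.681, 0.307 and 0.5702 for Nar+Glu, with all Glu libraries above all Control libraries.

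Over all members tested, 44 were called higher and 3 lower in Glu against Control. In Nar+Glu against DMSO+Glu 2 were called higher and 39 lower, in DMSO+Glu against Glu 0 and 14, and in Nar+Glu against Control 10 and 47. The shares of all genes called higher and lower were 12.6% and 18.7%, 4.87% and 5.0%, 0.379% and 0.872%, and 21.6% and 33.2% in the same comparisons, so that the 10 of 90 called higher in Nar+Glu against Control are below the share of all genes. Before adjustment, 0 members were higher and 48 lower at p below 0.05 in DMSO+Glu against Glu. The 44 became 28 without Control replicate 3, where the 1532 called higher over all genes became 983. The 14 became 7 without Glu replicate 2 or 3, and 8 without Glu replicate 1 or DMSO+Glu replicate 1. Over all genes, the 106 called lower became 52, 44, 45 and 51 in these fits, so the calls fell over the whole table too. With median-ratio scaling, 1947 of all genes were called higher and 1674 lower in Glu against Control, in place of 1532 and 2276, whereas the members gave 47 and 2.

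Other sperm genes outside the naming rule were examined as a list of 18. Of these, 16 were found in the table under the names listed and 9 were tested. Another, trp-3, is the member spe-41 and was left out of the list's counts. In Glu against Control 5 were called higher and 1 lower, in Nar+Glu against DMSO+Glu 7 lower, in DMSO+Glu against Glu 2 lower and in Nar+Glu against Control 8 lower. Over all genes, 12.6% were higher and 18.7% lower in the first, and 5.0%, 0.872% and 33.2% were lower in the others. The medians were 0.56, -0.80, -0.51 and -0.76. ssq-4, of a sperm-specific family, was measured at 2.45, 3.14 and 2.62 FPKM in the Control libraries, 7.56, 6.704 and 5.48 for Glu, 3.68, 3.24 and 2.83 for DMSO+Glu and 1.498, 0.838 and 0.654 for Nar+Glu. Its change was 1.01 ± 0.16 (SE, adjusted p 0.000678) in Glu and -1.11 ± 0.16 (SE, adjusted p 0.000914) in Nar+Glu against DMSO+Glu, with no overlap between the groups compared. The fall of ssq-4 with the solvent, -0.83 ± 0.16 (SE, adjusted p 0.0193), was lost without Glu replicate 1 or 2 or DMSO+Glu replicate 2 or 3 (adjusted p 0.0569 to 0.116). spch-2, which encodes a protein of sperm chromatin, changed by -0.78 ± 0.14 (SE, adjusted p 0.0036) in Nar+Glu against DMSO+Glu but was not called in Glu (0.33 ± 0.14 (SE, adjusted p 0.0802)). smz-1, a PDZ protein of sperm meiosis, rose by 0.57 ± 0.14 (SE, adjusted p 0.0106) in Glu and changed by -0.63 ± 0.14 (SE, adjusted p 0.0138) in Nar+Glu against DMSO+Glu. The latter call was lost without DMSO+Glu replicate 1 or Nar+Glu replicate 1 (adjusted p 0.0612 to 0.0614), and the former with quantile normalization (adjusted p 0.0511). Of the 9 tested, 2 went another way. elt-1, a GATA factor that also acts in the epidermis, was not called in any comparison, with changes of 0.06 ± 0.17 (SE, adjusted p 0.787) in Glu and 0.02 ± 0.17 (SE, adjusted p 0.957) in Nar+Glu against DMSO+Glu. The other was zipt-7.1, a zinc transporter of activation, at 30.1, 24.7 and 25.2 FPKM in the Control libraries, 21.1, 17.9 and 18.9 for Glu, 19.9, 21.6 and 18.4 for DMSO+Glu and 18.2, 19.96 and 18.4 for Nar+Glu. Its Control libraries were above all others, and it was called lower in Glu, -0.44 ± 0.09 (SE, adjusted p 0.00394), as were spe-39 and cpb-1.

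Genes that choose between sperm and oocyte fate did not follow the msp genes. Of 24 listed, 23 were in the table and 21 tested, and 10 were called lower and 0 higher in Glu against Control (median -0.21). In limma, 0 were called in Nar+Glu against DMSO+Glu or in DMSO+Glu against Glu (medians -0.07 and 0.02). Of all genes, 9.87% and 1.25% were called there in either direction, so few calls among 21 genes would match those shares. Before adjustment, limma gave p below 0.05 to 1 higher and 4 lower in the former and to 1 lower in the latter. In all, 15 were called lower in Nar+Glu against Control (median -0.27). Of all genes, 18.7% were called lower in Glu against Control and 33.2% in Nar+Glu against Control. fog-1, which directs germ cells to sperm fate, was measured at 14.6, 14.5 and 16.6 FPKM in the Control libraries, 10.02, 6.57 and 9.07 for Glu, 9.91, 8.85 and 10.03 for DMSO+Glu and 9.08, 8.56 and 9.15 for Nar+Glu. Its change in Glu was -0.78 ± 0.12 (SE, adjusted p 0.000515), with every Control library above the rest, and in Nar+Glu against DMSO+Glu it was -0.09 ± 0.12 (SE, adjusted p 0.656). fem-3, which also promotes sperm, changed by -0.34 ± 0.09 (SE, adjusted p 0.012) in Glu.

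Lists of other cells were read in the same libraries, and their part in the sperm gene changes was not tested. Of 20 oocyte and early embryo genes, 15 were called lower in Glu against Control, 5 lower in Nar+Glu against DMSO+Glu, 0 in DMSO+Glu against Glu and 18 lower in Nar+Glu against Control. Of all genes, 18.7%, 5.0%, 0.872% and 33.2% were called lower in these comparisons. Their sums ranged from 4947 to 5509 FPKM in Control, 4472 to 4856 in Glu, 4554 to 4954 in DMSO+Glu and 4265 to 4502 in Nar+Glu. oma-1, which holds oocytes ready for maturation, changed by -0.24 ± 0.06 (SE, adjusted p 0.0123) in Glu, a call lost without Glu replicate 2 (adjusted p 0.0513). Of 14 germ line genes, 6 were called lower in Glu, 2 lower in Nar+Glu against DMSO+Glu and 10 lower in Nar+Glu against Control, beside the same shares of all genes. Their sums were 792 to 833 in Control, 696 to 756 in Glu, 679 to 731 in DMSO+Glu and 622 to 675 in Nar+Glu.

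Of 8 genes of the spermatheca and gonadal sheath, the sperm store and its neighbour, 1 was called higher in Glu, near the 12.6% of all genes. In Nar+Glu against DMSO+Glu 1 was called higher, beside 4.87% of all genes, namely lim-7 (0.45 ± 0.11 (SE, adjusted p 0.0228)). That call was lost without DMSO+Glu replicate 1 or 3 or Nar+Glu replicate 1, 2 or 3 (adjusted p 0.0529 to 0.0833). Against Control, 4 were called higher in Nar+Glu (ceh-18, ipp-5, lim-7 and plc-1) and 1 lower (fkh-6), beside 21.6% and 33.2% of all genes. Their sums lay between 121 and 142 in all libraries. Of 11 larval moulting genes, 3 were called higher in Glu, 0 in Nar+Glu against DMSO+Glu or DMSO+Glu against Glu, and 7 higher and 2 lower in Nar+Glu against Control. Their sums were 108 to 138 in Control, 126 to 144 in Glu, 137 to 169 in DMSO+Glu and 155 to 164 in Nar+Glu, so that DMSO+Glu and Nar+Glu overlapped. Of all genes, 12.6% were called higher in Glu, and 21.6% higher and 33.2% lower in Nar+Glu against Control. In Nar+Glu against DMSO+Glu and DMSO+Glu against Glu, 9.87% and 1.25% of all genes were called in either direction. Of 15 genes first transcribed in the embryo, 9 were in the table and 5 were tested. In Glu against Control 1 of the 5 was called lower, near the 18.7% of all genes. Of 10 genes of male neurons and seminal fluid, 1 was in the table, and it stayed at or below 0.844 FPKM in all libraries.

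**Figure D5:**
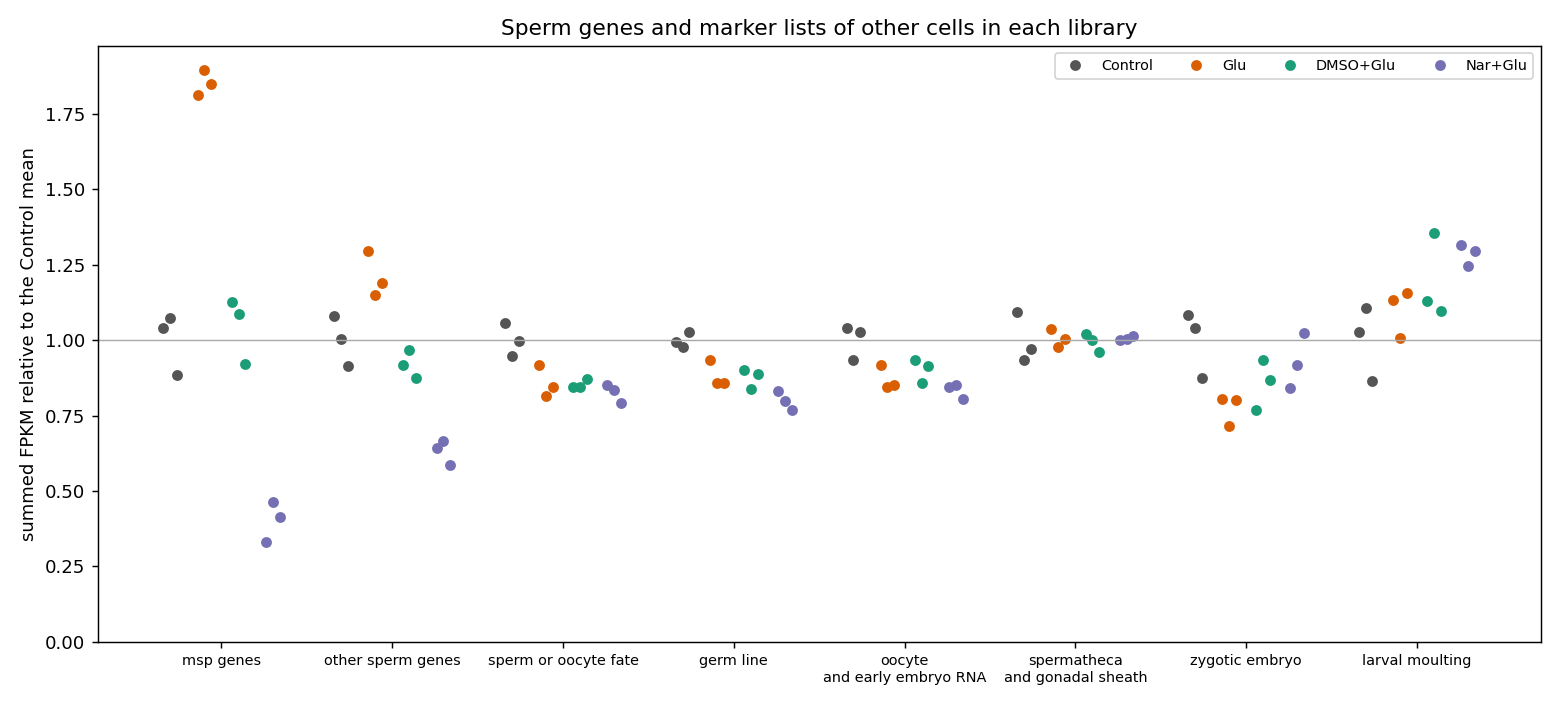
Summed FPKM of the msp genes and of 7 gene lists in each library (points, coloured by group), divided by the mean of the Control libraries (vertical axis). The msp sums span the widest range, followed by the other sperm genes, whereas the oocyte, germ line and fate lists were a little lower in every treated group than in most Control libraries.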

How the data were processed

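RNA of 12 libraries was processed by the authors with HISAT2 2.1.0 on WBcel235 and StringTie 1.3.3, and the deposited FPKM values per gene and per transcript were used as given. The files carry no counts, so depth per gene is unknown and no counting interval is given. The summed FPKM was 308900 to 362748 per library, and each gene in the table reached a mean of 0.500 FPKM in at least 1 group. Groups came from the labels. Members were matched by name to the RefSeq annotation of WBcel235 for coordinates, and all 111 matched. RefSeq holds 157 genes under the rule's names, and the 46 with no row were not analysed here. Members and lists were chosen with earlier results of these data known.

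log2(FPKM + 1) of genes with a mean above 1 FPKM was fitted in R 4.3.3 with limma 3.58.1 (a mean per group, trended, moderated variance, all 12 libraries) for 4 comparisons, with Benjamini-Hochberg adjustment over 12151 genes. Lists are given by counts and medians, with no test. Given by library are the highest member of each family, the 3 largest called rises and falls per comparison, and the genes listed by name. Spe and fer genes and members called against their family's median are also named. On simulated data with 200 genes changed 2-fold, 81.5% were recovered for Glu against Control, 74% for Nar+Glu against DMSO+Glu, 78.5% for DMSO+Glu against Glu and 83.5% for Nar+Glu against Control. Alternatives were the pseudocount, filter, scaling, variance model, libraries fitted, a library covariate, a replicate block and leaving out each library. The dropped filter with a pseudocount of 0.1 was added after seeing the data.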

Additional observations from a re-analysis of the deposited data

How the results depend on the processing

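With a mean above 5 FPKM as the filter, 43 members were tested: 22 were called higher in Glu against Control, 19 lower and 0 higher in Nar+Glu against DMSO+Glu, and 6 higher and 24 lower in Nar+Glu against Control, and the spe median in Glu was -0.19 over 3 genes. That filter kept 8080 genes in all. Of these, 896 were called higher in Glu against Control and 548 lower and 373 higher in Nar+Glu against DMSO+Glu. In Nar+Glu against Control, 1305 were called higher and 3793 lower. With the library covariate, the calls became 1 higher and 0 lower in Glu against Control and 0 in each direction of the other 3 comparisons, while the msp medians were -1.22 for Nar+Glu against DMSO+Glu and -1.188 against Control, and the spe medians -0.18 in Glu and -0.44 in Nar+Glu, both against Control. With it, nspc-15 (-0.0762) and nspc-9 (-0.117) reversed in Nar+Glu against Control. The spe and fer median in Glu against Control reversed to 0.14 with no filter, 0.0155 with quantile normalization and 0.29 with no filter and a pseudocount of 0.1. With no filter it was -0.16 in DMSO+Glu against Glu. Medians without the filter take in low genes that could enter the table through the group where they are high. Quantile normalization, a fit of only the 6 libraries compared and no variance trend each left 1 member called lower in Glu against Control, where they called 1096, 1529 and 1828 of all genes lower. Quantile normalization gave spe medians of -0.21 for Nar+Glu against DMSO+Glu and -0.34 against Control, with an msp median of -1.22 against Control. With a pseudocount of 0.1, with and without the filter, 1 member was called higher in Nar+Glu against DMSO+Glu and the msp medians were -1.34 there and -1.307 against Control. Without the filter it also left 9 members lower in DMSO+Glu against Glu, with spe and fer medians of -0.26 in Nar+Glu against DMSO+Glu, -0.34 in DMSO+Glu against Glu and -0.36 in Nar+Glu against Control. Over all genes, that pseudocount called 524 higher with the filter and 459 without it in Nar+Glu against DMSO+Glu. In DMSO+Glu against Glu it called 60 lower without the filter. The cause of these changes was not tested.

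Leaving out each library in turn, members called higher and lower numbered 28 to 46 and 0 to 5 in Glu against Control (0 lower without Control replicate 1 or 3 or Glu replicate 2 or 3, and 5 without Control replicate 2). They numbered 1 to 4 and 28 to 40 in Nar+Glu against DMSO+Glu (1 higher without DMSO+Glu replicate 2 or any Nar+Glu replicate, and 4 without Control replicate 1), 0 and 7 to 19 in DMSO+Glu against Glu, and 6 to 11 and 39 to 48 in Nar+Glu against Control (6 higher without Nar+Glu replicate 3). In these fits a group reduced to 2 libraries shares the spread of the others. Over all genes they called 930 to 1523 higher and 1036 to 2406 lower in Glu against Control. In Nar+Glu against DMSO+Glu it was 264 to 664 and 281 to 730, and in DMSO+Glu against Glu 24 to 49 and 44 to 120. In Nar+Glu against Control it was 2064 to 2631 and 3008 to 4017. The msp medians ran from 0.63 to 0.84, -1.18 to -0.89, -0.80 to -0.69 and -1.11 to -0.93, and the spe medians from -0.15 to -0.04, -0.16 to -0.11, -0.08 to 0.00058 and -0.23 to -0.10, for the same comparisons in order. Of 84 calls of named genes, 51 were lost with the library covariate only or not at all, and 33 under some other setting. Libraries that share a replicate number had residual correlations from -0.1 to 0.128 over 18 pairs, so the number was not taken to pair them. With the replicate block, members called higher and lower numbered 47 and 2, 2 and 39, 0 and 13, and 11 and 49. All genes so called numbered 1501 and 2310, 526 and 592, 41 and 89, and 2609 and 4069. Without counts, depth cannot be weighed, and genes near 1 FPKM are the least certain.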

Other observations

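In the transcript table, 6 members had more than 1 transcript, and the values are given without a test and were chosen after they were seen. The spe-15 transcript F47G6.4b was at 1.32, 2.14 and 2.08 FPKM in the Control libraries, 3.35, 3.30 and 3.22 in Glu, 2.16, 2.66 and 1.79 in DMSO+Glu and 1.22, 0.822 and 1.43 in Nar+Glu. Its Glu libraries lay above all others. The transcript F47G6.4c of the same gene was at 0.352, 0.736 and 0.243 in Control, 0.174, 0.149 and 0.0548 in Glu, 0.0962, 0.138 and 1.46 in DMSO+Glu and 1.14, 1.42 and 1.16 in Nar+Glu, so that a solvent library was as high as those of Nar+Glu. Assigning short reads to such transcripts is uncertain.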
